A study of Mus musculus with 6 samples.

Results

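The genes described here encode the mitochondrial ribosomal proteins, taken as every gene on the array whose single annotated symbol begins with Mrpl or Mrps followed by a digit. There were 78 such genes among the 30142 genes tested, 48 with a large-subunit symbol (Mrpl) and 30 with a small-subunit symbol (Mrps). The rule kept, for a gene with several rows, the row with the highest mean over the 6 arrays. Rows were thus selected on mean expression over both diets, but all 78 genes had 1 row each, so that step removed none. The gene set was chosen by symbol with its difference between the diets already known, so the counts and medians over it are a description. Of the 78 symbols, 4 are those of pseudogenes: Mrpl23-ps1, Mrpl48-ps, Mrps36-ps1 and Mrps36-ps2. A further 4 rows paired such a symbol with that of another gene and were not used here.

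The study compared macrophages of epididymal fat from lean and obese male C57BL/6J mice. Lean mice ate normal chow (NCD) and obese mice a diet of 60% fat (HFD), both for 16 weeks from 6 weeks of age, so that they were 22 weeks old at collection. Cells carrying the macrophage antigen F4/80 were taken from the stromal vascular fraction of collagenase-digested fat with an antibody and magnetic selection. Each diet had 3 pools, of 20 mice each for NCD and 10 mice each for HFD, and 100 ng of RNA from each pool was labelled for 1 Affymetrix array. Error bars and p-values therefore refer to pools and say nothing of how individual animals varied.

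Mitochondria carry their own ribosome, which translates the few proteins encoded in mitochondrial DNA, all of them subunits of the respiratory chain and ATP synthase. Every protein of that ribosome is encoded in the nucleus, made in the cytosol and imported. The large subunit holds the peptidyl transferase centre and the exit tunnel, the small subunit binds the messenger RNA and decodes it. Members that share a number with a bacterial ribosomal protein were named after it. Higher numbers continue the series, mostly for proteins without such a namesake.

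Values are log2 expression as deposited, and a change is the HFD mean less the NCD mean, given with its limma standard error. A gene was called at a Benjamini-Hochberg adjusted p below 0.05 over all 30142 genes. The 8 macrophage markers examined, among them Adgre1, Csf1r and Cd68, all lay above the array's background level of 6.23. The mean of these markers was 15.06 on NCD1, 15.10 on NCD2 and 14.36 on NCD3, and NCD3 held the lowest value of 7 of the 8. On the HFD arrays the mean ran from 15.10 to 15.28, and 2 markers were called higher and 1 lower. The HFD arrays lay closer together than the NCD arrays over the 15747 genes with a mean above background (median SD 0.113 against 0.199). For the 78 members the median SD was 0.124 in NCD and 0.127 in HFD.

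The mitochondrial ribosomal protein genes lay slightly higher in macrophages of obese mice, nearly all in the same direction and few of them by enough to be called. Of the 78 genes, 73 had a positive change, with a median of 0.26 (1.20-fold) and a range from -0.13 to 0.93. The median change over all genes tested was 0.013, and 53.1% of those genes had a positive change. In 51 of the 78 genes all 3 HFD arrays lay above all 3 NCD arrays, and in 0 all 3 lay below. The first of these patterns held for 17.6% of all genes and for 26.6% of genes with a mean above background, the class to which 77 of the 78 members belonged. The second held for 3912 of all 30142 genes and for 2762 of the 15747 genes above background.

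By limma, 7 members were called higher and 0 lower in HFD, which is 8.97% of the 78. Over all genes 4.96% were called higher and 2.87% lower, and among genes above background 8.73% were called higher and 4.59% lower. The share of members called therefore lay near that of other genes of detectable level. At an unadjusted p below 0.05, 34 members were higher and 0 lower. Among the 15747 genes above background 3296 (20.9%) were higher and 2596 lower at that threshold. Leaving out 1 array gave 8 calls for NCD1, 1 for NCD2, 2 for NCD3 and for HFD1, and 0 for HFD2 and for HFD3. It was also 0 with the mean of endothelial markers as a covariate, in a fit where the median change was 0.27 for large-subunit and 0.24 for small-subunit genes and 76 members were positive. Each of the 7 called members was smaller in that fit, and 4 of them by over 1.5 times: Mrps22 (0.38), Mrps15 (0.36), Mrps36 (0.35) and Mrps36-ps2 (0.35).

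**Figure D1:**
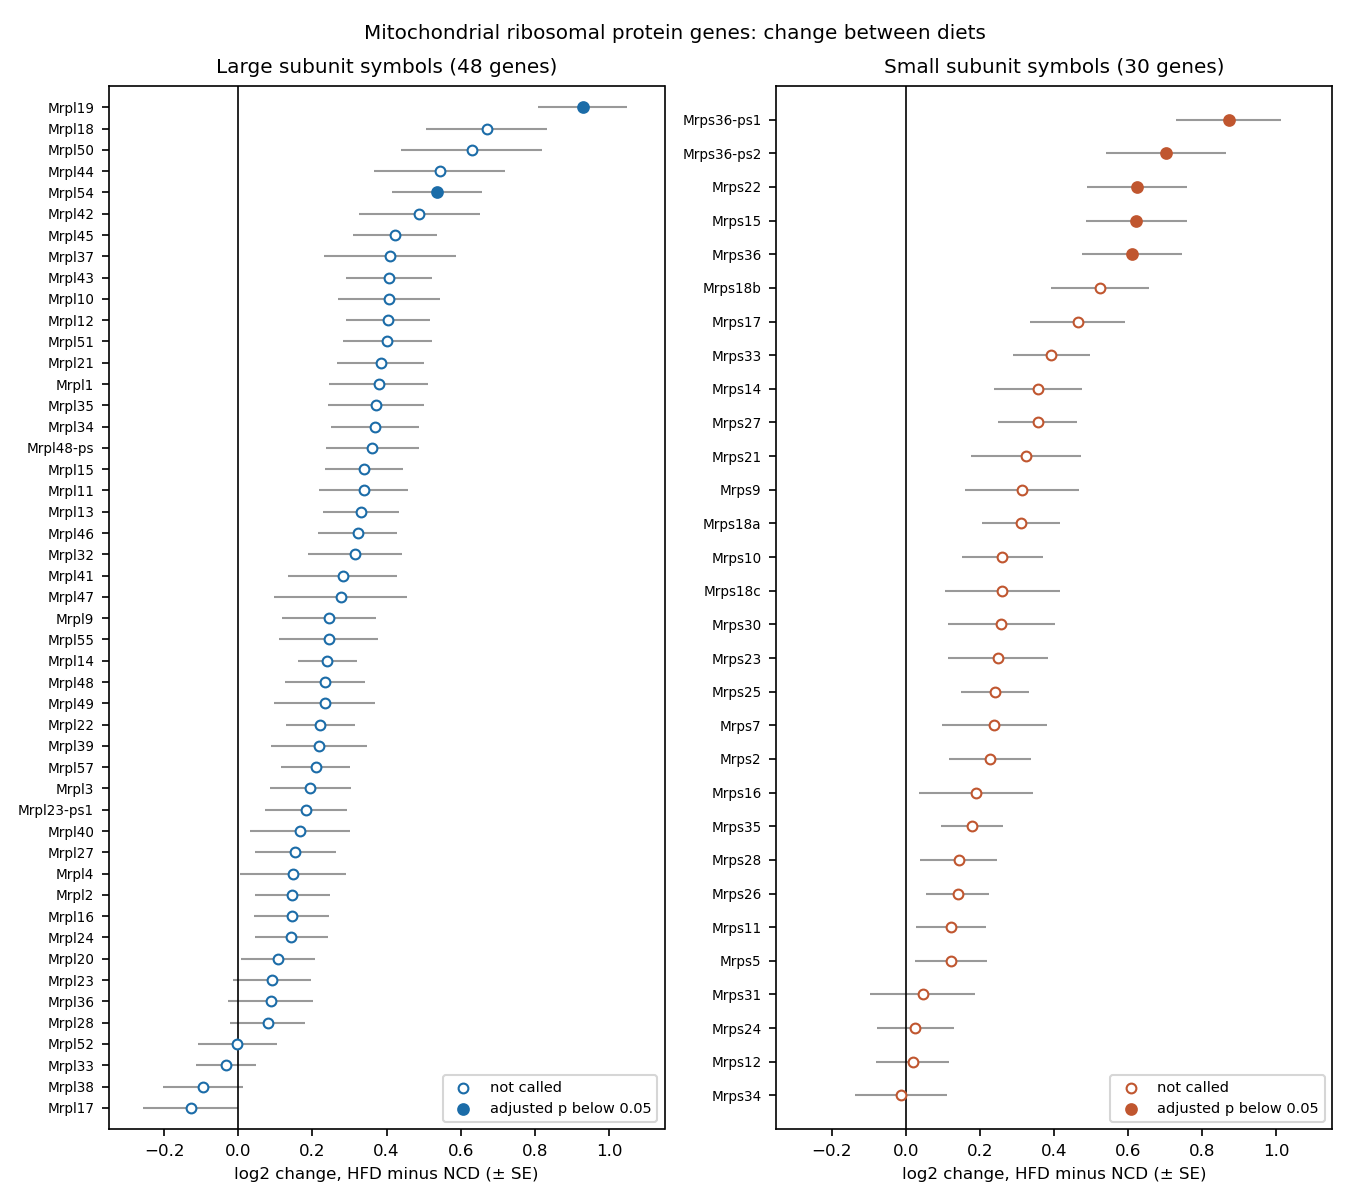
Log2 change (HFD minus NCD, x axis, bars ± SE, 3 arrays per diet) of each member, ordered by size, for 48 genes with large-subunit symbols (left) and 30 with small-subunit symbols (right). Filled points are the 7 genes with an adjusted p below 0.05; 5 points lie left of 0 and none of these is filled.

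The 4 called genes that encode ribosome subunits were Mrpl19 and Mrpl54 of the large subunit and Mrps15 and Mrps22 of the small. Mrpl19, which shares its number with bacterial L19, had 8.03, 7.87 and 7.84 in the NCD pools and 8.67, 8.86 and 8.99 in the HFD pools, each in the order of their numbers. The lowest HFD array was 0.64 above the highest NCD array. Mrpl19 rose 1.90-fold (0.93 ± 0.12, adjusted p = 0.0104), the largest change among the 78 members. Its change was 0.85 to 1.01 over the fits without 1 array, and it was called in 3 of these 6 (without NCD1, NCD3 or HFD1).

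Mrpl54, whose number lies above those of the bacterial proteins, had 7.38, 7.48 and 7.54 in the NCD pools and 7.78, 8.10 and 8.13 in the HFD pools. The pools of the diets were apart by 0.24, and HFD1 was the lowest of its group. Mrpl54 rose 1.45-fold (0.54 ± 0.12, adjusted p = 0.0476), the smallest change that was called, and without 1 array it was called only when HFD1 was left out.

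In the small subunit, Mrps15, which shares its number with a bacterial protein that binds the small ribosomal RNA, had 10.21, 9.99 and 9.90 in NCD and 10.48, 10.72 and 10.77 in HFD. Mrps15 rose 1.54-fold (0.62 ± 0.14, adjusted p = 0.0434). Mrps22 is particular to the mitochondrial ribosome and is a known human disease gene of mitochondrial translation. It had 8.60, 8.27 and 8.42 in NCD and 8.89, 9.08 and 9.20 in HFD. Mrps22 rose 1.54-fold (0.62 ± 0.13, adjusted p = 0.0416). For both genes the groups did not overlap, NCD1 was the highest NCD array, and the call was kept without NCD1 and lost without each of the other 5 arrays. With the endothelial covariate the change was 0.36 for Mrps15 and 0.38 for Mrps22, and neither was called (adjusted p = 0.297 and 0.307).

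The other 3 calls were Mrps36 and its pseudogenes. Mrps36 was first listed as a small-subunit protein and is now known as a component of the 2-oxoglutarate dehydrogenase complex of the citric acid cycle. Its values were 7.93, 7.72 and 7.51 in NCD and 8.24, 8.28 and 8.46 in HFD, a rise of 1.53-fold (0.61 ± 0.13, adjusted p = 0.0435). The row of Mrps36-ps1 stood at 9.25, 9.53 and 9.22 in NCD and at 10.10, 10.12 and 10.40 in HFD (0.87 ± 0.14, adjusted p = 0.0193). That of Mrps36-ps2 stood at 8.56, 8.19 and 8.22 and at 8.77, 9.09 and 9.21 (0.70 ± 0.16, adjusted p = 0.0495). A pseudogene is a near copy of its parent, so these 3 rows cannot be taken as 3 separate genes, and shared probe sequence was not examined. The other pseudogene rows also had larger changes than their parents, at 0.36 for Mrpl48-ps beside 0.23 for Mrpl48 and 0.18 for Mrpl23-ps1 beside 0.091 for Mrpl23, none of them called. Without Mrps36 and the pseudogene rows, 4 of 73 members were called (5.48%), 68 were positive and the median was 0.25.

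**Figure D2:**
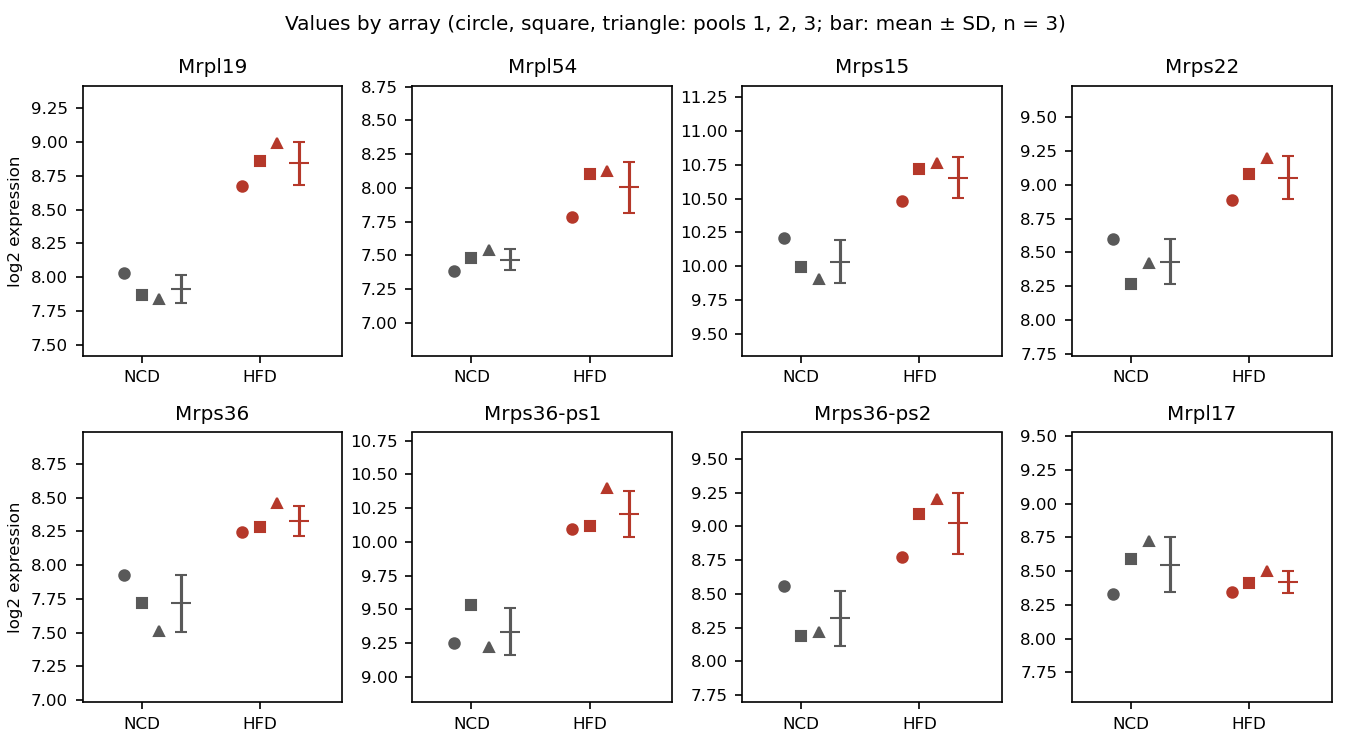
Log2 expression (y axis, a span of 2 log2 units in each panel) on each array for the 7 called members and for Mrpl17, the member with the lowest change. In the 7 called members each HFD pool lies above each NCD pool, by at least 0.21; in Mrpl17 the diets overlap.

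Promoter sequence was available for 65 of the 74 members without a pseudogene symbol, from RefSeq on build GRCm38.p6, as windows of 250 bases before to 50 bases after the annotated start. Of the 4 called ribosomal genes, Mrps15 and Mrps22 had a window. Their bases before the start are shown with those of Mrpl32 and Mrpl52, 2 members that were not called and that carry several matches to the motifs searched. Capitals mark matches, on either strand, to CCGGAAG (the core bound by ETS factors such as GABPA), GCGCATG (part of the NRF-1 site) and AAGATGG (YY1), factors known to act on nuclear genes of mitochondria.
Mrps15: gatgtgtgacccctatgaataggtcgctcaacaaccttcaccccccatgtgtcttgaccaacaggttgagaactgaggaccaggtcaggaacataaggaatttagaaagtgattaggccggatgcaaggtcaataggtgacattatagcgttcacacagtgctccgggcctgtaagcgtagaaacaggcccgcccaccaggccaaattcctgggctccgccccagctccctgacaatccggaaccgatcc
Mrps22: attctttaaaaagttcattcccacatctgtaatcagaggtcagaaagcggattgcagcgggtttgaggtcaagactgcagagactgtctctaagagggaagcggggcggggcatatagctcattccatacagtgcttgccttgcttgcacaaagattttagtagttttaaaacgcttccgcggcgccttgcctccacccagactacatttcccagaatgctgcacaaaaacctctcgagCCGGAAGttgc
Mrpl32: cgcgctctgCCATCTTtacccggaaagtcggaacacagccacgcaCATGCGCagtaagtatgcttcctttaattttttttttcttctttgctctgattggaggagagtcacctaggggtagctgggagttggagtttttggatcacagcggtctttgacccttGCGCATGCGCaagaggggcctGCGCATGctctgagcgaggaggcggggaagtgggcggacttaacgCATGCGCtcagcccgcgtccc
Mrpl52: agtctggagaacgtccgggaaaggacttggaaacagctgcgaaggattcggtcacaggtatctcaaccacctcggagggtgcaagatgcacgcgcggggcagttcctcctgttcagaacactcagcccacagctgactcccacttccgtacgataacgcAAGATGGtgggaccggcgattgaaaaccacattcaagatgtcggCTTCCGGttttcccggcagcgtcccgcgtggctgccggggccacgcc
These lie at chr4:126046678-126046927 on the plus strand for Mrps15, chr9:98601680-98601929 on the minus strand for Mrps22, chr13:14613038-14613287 on the minus strand for Mrpl32 and chr14:54426659-54426908 on the plus strand for Mrpl52.

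Mrps22 held 1 ETS match 11 to 5 bases before its start, and Mrps15 held no match to the 3 motifs in these bases. Mrpl32 held 5 matches to the NRF-1 letters, 2 of which overlap as the arms of a palindrome, and 1 YY1 match. Mrpl52 held 1 ETS match and 1 YY1 match in the bases shown, with a second ETS match just after its start. The change was -0.0034 for Mrpl52 and 0.31 for Mrpl32, neither called. It was 0.62 for Mrps22 and 0.62 for Mrps15, both called. These genes were picked as examples, and a relation of motifs to change was not tested. The ETS letters were in 35.4% of the member windows (23 of 65), against 9.12% of all 27025 genes with a window and 11.9% of 17491 protein-coding genes. For YY1 the shares were 20.0% (13 of 65) of members, 6.48% of all and 6.37% of protein-coding genes, and for NRF-1 12.3% (8 of 65), 4.04% and 4.88%. TATAAA, the letters of the TATA box, was in 6.15% of members and 13.3% of protein-coding genes. The median GC content was 58% in member windows and 56.3% in those of protein-coding genes.

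Members with and without a motif had similar median changes, a difference that was not tested. The median change was 0.26 for members with the ETS letters and 0.25 for the 42 without, 0.23 with the NRF-1 letters and 0.26 without, and 0.24 with the YY1 letters and 0.26 without. By subunit, ETS matches were in 12 of 40 large-subunit and 11 of 25 small-subunit windows, and NRF-1 matches in 7 and 1. A match to letters is a description of the window and does not show that a factor binds there.

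Among the other large-subunit genes, none was called in any of 3 functional regions: the peptidyl transferase centre, the exit tunnel and the stalk that binds translation factors. Among genes above background 8.73% were called higher, so 0 calls in groups this small say little about a region. The genes named for proteins around the catalytic centre, Mrpl2, Mrpl3, Mrpl16 and Mrpl27, lay between 0.14 and 0.19, with 0 of 4 called. The exit tunnel genes Mrpl4, Mrpl22, Mrpl23, Mrpl24 and Mrpl45 lay between 0.091 and 0.42, again with none called (smallest adjusted p = 0.074, for Mrpl45). In the stalk, Mrpl10 (0.41 ± 0.14), Mrpl11 (0.34 ± 0.12) and Mrpl12 (0.40 ± 0.11) each had all HFD arrays above all NCD arrays and were not called (smallest adjusted p = 0.084, for Mrpl12). That order of the arrays held for 65.4% of all members and for 26.6% of genes above background. Mrpl12, the mitochondrial counterpart of the L7/L12 stalk protein, had 7.30, 7.42 and 7.40 in NCD and 7.59, 7.83 and 7.92 in HFD. These role groups were formed after the values were known, and differences between them were not tested.

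Other large-subunit genes exceeded some of the called ones in size without being called. Mrpl18, whose bacterial namesake binds the 5S ribosomal RNA, had 8.89, 8.41 and 8.82 in NCD and 9.22, 9.37 and 9.54 in HFD (0.67 ± 0.16, adjusted p = 0.0572). Its groups did not overlap, NCD2 was lowest, and it was called without NCD1 (0.76, adjusted p = 0.0307). Mrpl50 had 10.26, 9.83 and 10.50 against 10.71, 10.81 and 10.97 (0.63 ± 0.19, adjusted p = 0.0998), again with NCD2 the lowest. Mrpl44, which carries a ribonuclease III-like fold, had 7.15, 7.18 and 7.48 against 7.73, 7.56 and 8.15 (0.54 ± 0.18, adjusted p = 0.119), and HFD3 stood above the other HFD pools. The 3 large-subunit rows with the highest means were Mrpl42 (0.49 ± 0.16, adjusted p = 0.125), Mrpl24 (0.14 ± 0.099) and Mrpl39 (0.22 ± 0.13, or 0.14 without HFD3), and Mrpl42 was at 10.97, 11.33 and 11.15 in NCD and 11.49, 11.52 and 11.90 in HFD.

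The large-subunit genes with the lowest changes were Mrpl17 (-0.13 ± 0.13, adjusted p = 0.619), Mrpl38 (-0.096 ± 0.11), Mrpl33 (-0.034 ± 0.082) and Mrpl52. Mrpl17 had 8.33, 8.59 and 8.73 in NCD and 8.34, 8.41 and 8.50 in HFD, so that the diets overlapped, and its change ran from -0.24 without NCD1 to -0.041 without NCD3. With median centring or quantile normalization of the arrays, Mrpl33 and Mrpl52 turned positive and Mrpl17 and Mrpl38 stayed negative. Mrpl41 was the single member with a mean below background, at 5.48, 5.47 and 5.14 in NCD and 5.62, 5.43 and 5.89 in HFD, so its change of 0.28 ± 0.15 says little. Just above background, Mrps28 had a change of 0.14 ± 0.10, which was 0.061 without NCD1 and 0.22 without NCD2.

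In the small subunit, no gene of the decoding site or of the head was called. With 8.73% of genes above background called higher, 0 calls among so few genes say little about these sites. Mrps12, counterpart of the bacterial S12 protein at the decoding site, had 7.98, 8.16 and 8.08 in NCD and 8.06, 8.04 and 8.19 in HFD (0.018 ± 0.098, adjusted p = 0.939). Mrps5, named for the S5 protein at the messenger RNA entry, was at 0.12 ± 0.097. The head genes Mrps7, Mrps9, Mrps10 and Mrps14 lay between 0.24 and 0.36, with 0 called. In 3 of 4 all HFD arrays lay above all NCD arrays, as in 26.6% of genes above background. The diets were apart by only 0.0027 for Mrps9 and 0.039 for Mrps10. The small-subunit row with the highest mean was Mrps23 (0.25 ± 0.14, adjusted p = 0.328), followed by Mrps15 and Mrps36-ps1, and without HFD3 its change was 0.15. Mrps17, named for a protein bound early in small-subunit assembly, was at 0.46 ± 0.13 (adjusted p = 0.0804). The lowest changes beside Mrps12 were Mrps34 (-0.013 ± 0.12), Mrps24 (0.025 ± 0.10) and Mrps31 (0.045 ± 0.14), and Mrps34 turned positive with median centring or quantile normalization.

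The S18 family has 3 mitochondrial paralogs, of which the product of Mrps18a sits in the large subunit despite its symbol. Mrps18b had 8.96, 8.97 and 8.81 in NCD and 9.22, 9.52 and 9.58 in HFD (0.52 ± 0.13, adjusted p = 0.0621). A row that pairs Mrps18b with Gm16279, not used here, lay near background and the diets overlapped in it. It had 6.02, 6.26 and 6.05 in NCD and 6.28, 6.18 and 6.21 in HFD. Mrps18a had 7.25, 7.56 and 7.38 against 7.68, 7.74 and 7.70 (0.31 ± 0.10, adjusted p = 0.128), and Mrps18c had 8.76, 9.21 and 9.06 against 9.22, 9.13 and 9.46 (0.26 ± 0.16, adjusted p = 0.373). The diets were apart for Mrps18a and Mrps18b and overlapped for Mrps18c, and none of the 3 was called.

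The large and small subunits had nearly the same median change. The median change was 0.26 over the 48 large-subunit genes and 0.26 over the 30 small-subunit genes, a difference of 0.0014. The middle 50% of genes lay between 0.15 and 0.39 in the large subunit and between 0.15 and 0.38 in the small. All 3 HFD arrays lay above all NCD arrays in 31 of 48 large-subunit genes (64.6%) and in 20 of 30 small-subunit genes (66.7%), beside 26.6% of genes above background. Calls were 2 of 48 (4.17%) and 5 of 30 (16.7%), and 3 of the latter were Mrps36 and its pseudogenes. Among genes above background 8.73% were called higher. With Mrps18a and Mrps30 counted in the large subunit, where their proteins sit, and with Mrps36 and pseudogenes left out, calls were 2 of 48 and 2 of 25 at medians of 0.27 and 0.24. The median of the large minus that of the small subunit, as deviations from each gene's mean, ran from -0.043 to 0.052 over the NCD arrays and from -0.039 to -0.00021 over the HFD arrays, so that the diets overlapped.

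Members numbered after bacterial proteins and those with higher numbers had similar medians. These classes were set by number alone, so a higher number does not show that a protein is particular to mitochondria. In the large subunit 27 genes with bacterial numbers had a median of 0.24 and 1 call, and 19 with higher numbers had a median of 0.28 and 1 call. In the small subunit 15 genes with bacterial numbers had a median of 0.26 and 1 call, and 13 with higher numbers had a median of 0.24 and 2 calls, Mrps22 and Mrps36. Beside these counts, 8.73% of genes above background were called higher. Differences between these classes were not tested.

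The arrays were not equal within a diet. The median deviation of the 78 members from their own means was -0.15 for NCD1, -0.097 for NCD2, -0.093 for NCD3, 0.039 for HFD1, 0.12 for HFD2 and 0.28 for HFD3. HFD3 held the highest value of 56 members and NCD1 the lowest of 44, so the groups were apart at the median but HFD1 lay closer to the NCD arrays than to HFD3. Without HFD3 the median change was 0.21 in the large and 0.19 in the small subunit. Over all genes above background the same medians ran only from -0.056 to 0.025.

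Genes of other programs and cells moved across the same arrays. Of 14 cell cycle markers 13 were called higher and 0 lower, and all 14 had a positive change (median 1.61). Their list mean was 8.62 to 9.25 on the NCD arrays and 10.46 to 11.00 on the HFD arrays, and HFD3 was highest for all 14. The 11 endothelial markers had a list mean of 12.35 to 14.78 in NCD and 11.41 to 12.85 in HFD, with a median change of -1.90, 0 called and 9 lower at an unadjusted p below 0.05. NCD3 held the highest value of all 11, and also of all 10 smooth muscle and pericyte markers. Of 10 smooth muscle and pericyte markers 7 were called lower and 9 had a negative change, and of 6 mesothelial markers 6 were called lower. Of 7 fibroblast and progenitor markers 4 were called higher. Among these, 2 others, Dpp4 (-1.42) and Dcn (-0.88), had all HFD arrays below all NCD arrays and were not called. Of the T and B cell, adipocyte and neutrophil markers 0 were called (0 higher, and 1, 1 and 0 lower, at an unadjusted p below 0.05). Of the dendritic cell markers Cd209a was called lower. The neutrophil list stood apart on HFD3, with a mean of 10.47 there against 7.64 on HFD1, 7.47 on HFD2 and 8.40 to 8.94 on the NCD arrays. In that list S100a8 was at 12.83 on HFD3 and at 7.35 and 7.14 on HFD1 and HFD2, and HFD3 was also the array with the highest value of most ribosomal members. The part of these programs in the shift of the ribosomal genes was not tested, and in such pooled RNA fewer cells of a type and less RNA per cell cannot be told apart.

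**Figure D3:**
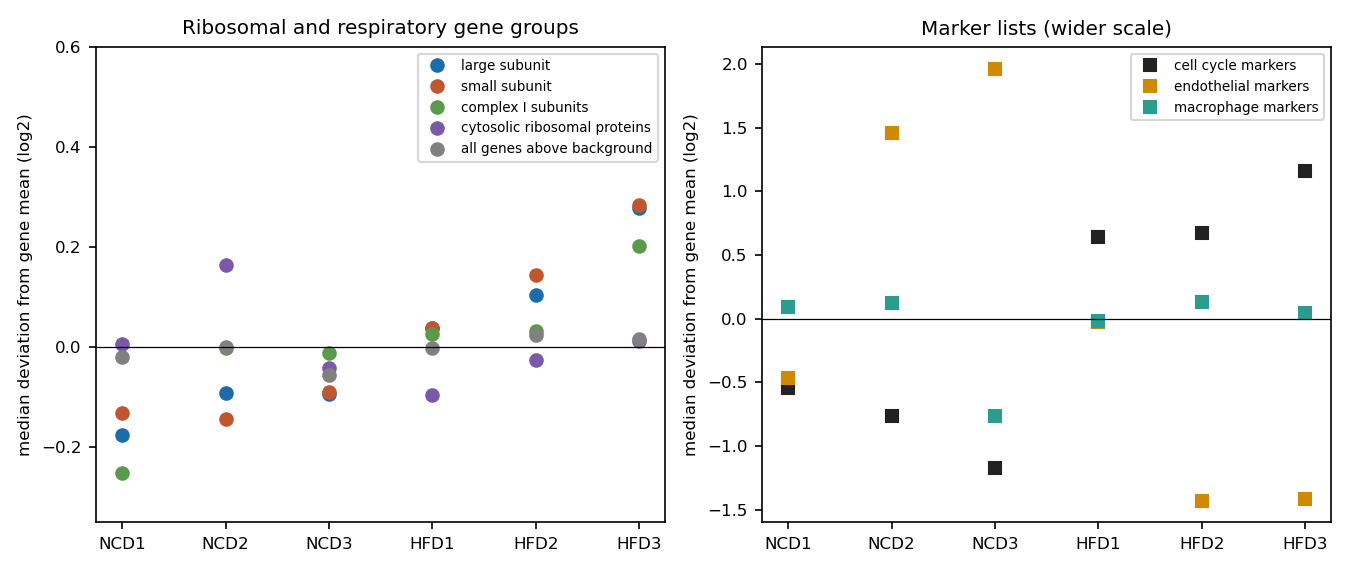
Median deviation from each gene's mean over the 6 arrays (log2, y axis) on each array (x axis), for gene groups (left) and marker lists (right, on a wider scale). Large and small subunit points run from -0.18 to 0.28 and lie close to each other on all 6 arrays, cytosolic ribosomal proteins are highest on NCD2, and cell cycle markers are above 0 on the HFD arrays.

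Genes that act with the mitochondrial ribosome were mostly positive as well and few were called. Of 25 factors that assemble the ribosome or process its RNA, 3 were called higher (12.0%) and 0 lower, with a median of 0.15. Among genes above background 8.73% were called higher. Ddx28, an RNA helicase of large-subunit assembly, had 7.58, 7.33 and 7.43 in NCD and 8.05, 8.15 and 8.22 in HFD (0.69 ± 0.10, adjusted p = 0.0153). Rpusd4, a pseudouridine synthase of the large ribosomal RNA, rose by 0.60 ± 0.098 (adjusted p = 0.0189) and Fastkd2, an RNA-binding assembly factor, by 0.58 ± 0.13 (adjusted p = 0.0463). Of 15 translation factors 1 was called higher (6.67%) and 0 lower, with a median of 0.23. The called gene was Lrpprc, which stabilises mitochondrial messenger RNA (0.52 ± 0.12, adjusted p = 0.0459). At an unadjusted limma p below 0.05, 8 of the 15 were higher and 1 was lower, Mrrf (-1.22).

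Of 16 mitochondrial aminoacyl-tRNA synthetases, which charge the transfer RNAs, 0 were called by limma (4 higher and 0 lower at an unadjusted p below 0.05), with a median of 0.15. The 4 mitochondrial transcription genes had a median of 0.19 with 0 called (1 higher and 0 lower at an unadjusted p below 0.05). Over the 8 regulators measured of nuclear genes for mitochondria, among them Nrf1, Gabpa and Yy1, the median was -0.054 with 0 called (1 higher and 0 lower at an unadjusted p below 0.05). Gabpa was at -0.064 ± 0.13, Nrf1 at -0.11 ± 0.091 and Yy1 at -0.044 ± 0.10. The 4 calls among the 73 genes of these lists were 8 higher and 1 lower without NCD1, 2 higher without NCD3 or HFD1, and 0 without NCD2, HFD2 or HFD3 and with the endothelial covariate.

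A few ribosomal proteins carry symbols outside the Mrpl and Mrps series. Of 5 such genes measured, 0 were called (1 higher and 0 lower at an unadjusted p below 0.05), and their median was 0.088. Gadd45gip1, a large-subunit protein, was at 0.35 ± 0.14 (adjusted p = 0.182) and Chchd1, a small-subunit protein, at 0.29 ± 0.14 (adjusted p = 0.281). Dap3, a GTP-binding small-subunit protein, was at 0.088 ± 0.094, Ptcd3 of the small subunit at 0.049 ± 0.10 and Mrpl58, a peptidyl-tRNA hydrolase annotated under its old symbol Ict1, at 0.0059 ± 0.11. Without HFD3, Gadd45gip1 was at 0.20 and Dap3 at 0.046, and without NCD1, Chchd1 was at 0.15.

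The ribosome of the cytosol is built from other genes, and their median change was slightly below 0. Of 32 cytosolic ribosomal protein genes with a single symbol, 26 had a negative and 6 a positive change, with a median of -0.055, and Rpl10a alone was called (0.61 ± 0.12, adjusted p = 0.0336). All 3 HFD arrays lay above all NCD arrays in 1 of 32, beside 51 of the 78 mitochondrial genes. Respiratory complex I joins nuclear proteins with products of the mitochondrial ribosome. The 33 genes with symbols of its subunits (Nduf) were taken by symbol alone, without a check of where each protein sits. They had a median of 0.16, 28 positive changes and 1 call, Ndufc1 (0.51 ± 0.11, adjusted p = 0.0397). The difference between these groups and the mitochondrial ribosomal genes was not tested.

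**Figure D4:**
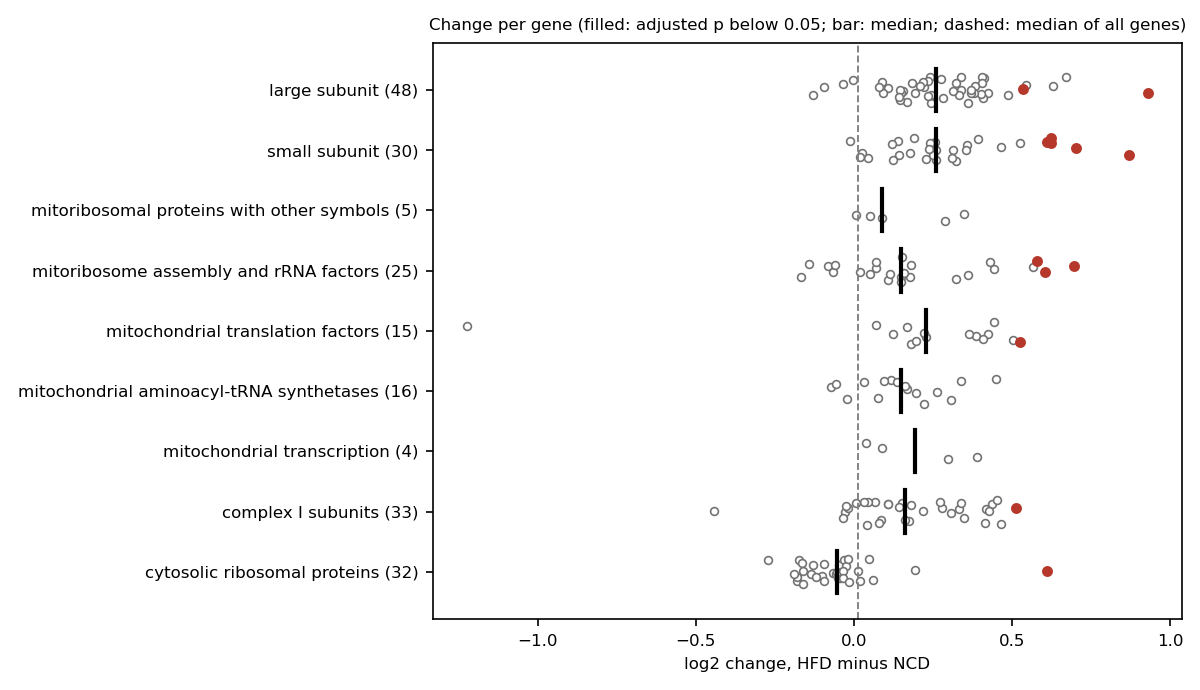
Log2 change (HFD minus NCD, x axis) of each gene in 9 gene groups (y axis, with the number of genes); filled points have an adjusted p below 0.05, black bars are medians and the dashed line is the median of all genes, 0.013. The large and small subunit bars both lie at 0.26, that of complex I symbols (Nduf) at 0.16 and that of cytosolic ribosomal proteins at -0.055.

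**Figure D5:**
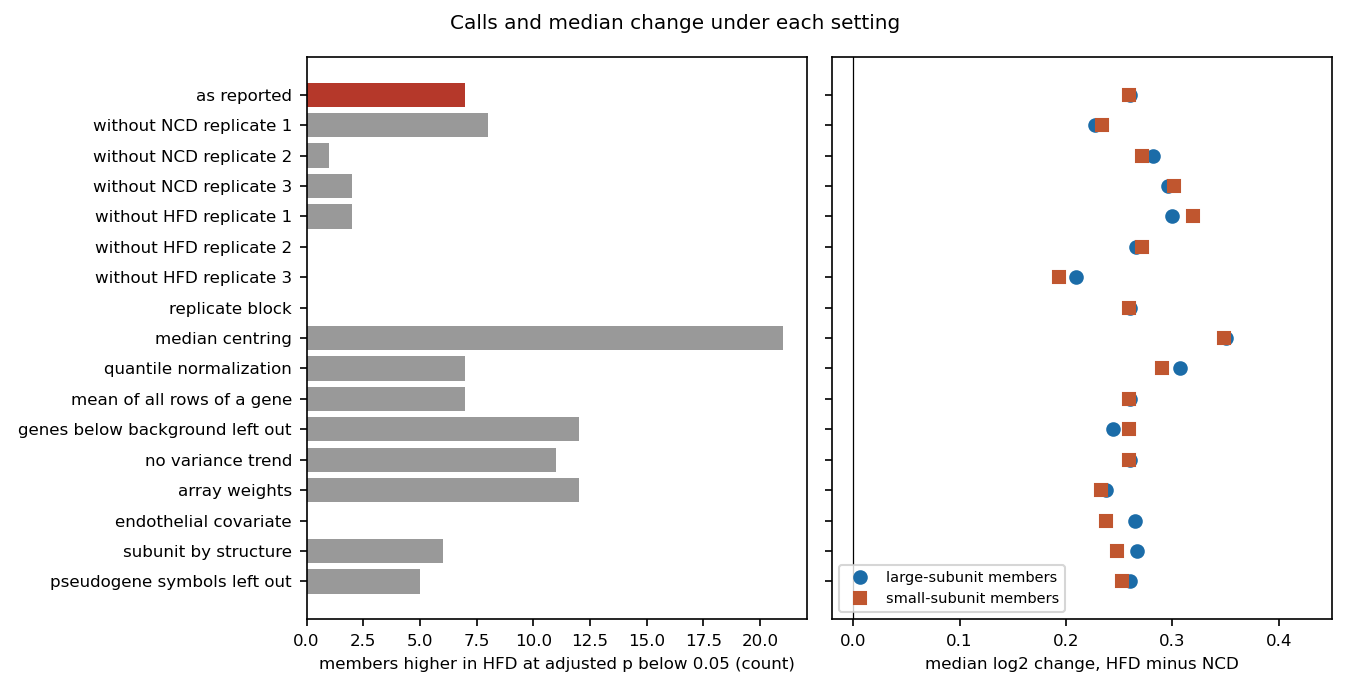
Number of the members called higher in HFD (left, bars from 0) and median log2 change of large-subunit and small-subunit members (right) under each processing setting. The count runs from 0 to 21, while the medians stay between 0.19 and 0.35.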

How the data were processed

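Values were used as the authors deposited them: log2 expression of each transcript cluster on 6 arrays. RMA is named in the submitters' processing notes, as are Transcriptome Analysis Console (3.1.0.5) and Affymetrix Expression Console (1.4.1.46). The role of each, the options and the genome build are not given in the sources used here. From it, 6732 control rows were left out and 30142 genes with a single symbol were tested. Old symbols were updated by Entrez identifier, members were matched on the annotated symbol. Background (6.23) is the mean over arrays of the 95th percentile of 23 background probe sets; no gene was filtered.

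Diets were compared with limma 3.58.1 (lmFit, eBayes with a trend) in R 4.3.3, two-sided, without a replicate block, and checked on simulated data. Arrays have no depth of reads; with 3 a diet, their number limits the precision (median standard error 0.118). Named members were those called, the 4 highest and 4 lowest changes and 3 highest means per subunit, and those next to the background level; other examples were chosen after values were seen. The members, lists, motifs and roles were chosen with earlier results of these data known. Figures used matplotlib 3.10.9.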

Additional observations from a re-analysis of the deposited data

How the results depend on the processing

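The direction of both subunit medians was kept under each alternative run, from 0.21 to 0.35 (large) and 0.19 to 0.35 (small, the highest with median centring), and large minus small stayed between -0.020 and 0.027. The number of members called, 7, was 0 with the replicate block or the endothelial covariate, 21 with median centring, 12 with genes below background left out or with array weights, 11 without a variance trend, and 0 to 8 without 1 array. For the other genes of the pathway, 4 calls became 0 with the replicate block or the covariate, 14 with median centring, 8 with genes below background left out, 11 with array weights, 9 without a trend, and 0 to 8 without 1 array. Deviations of same-numbered arrays from their diet means correlated at -0.55, -0.21 and -0.20, and those of differently numbered arrays at -0.40 to 0.49. Deviations cancel within a diet, so these values depend on each other and cannot show whether the replicate numbers pair the samples. Fits without 1 array have fewer samples; the cause of the other differences was not tested.

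The named genes whose change turned sign were not called, and in the reported fit they lay between -0.13 and 0.045. In other fits some lay further from 0, as Mrps34 and Mrps31 did. With the covariate Mrpl17 was at 0.036, Mrpl38 at 0.030, Mrpl52 at 0.087 and Mrps34 at 0.18. With median centring and quantile normalization Mrpl33 was at 0.056 and 0.060, Mrpl52 at 0.086 and 0.033, and Mrps34 at 0.076 and 0.063. With array weights Mrps12 was at -0.028, Mrps24 at -0.021 and Mrpl58 at -0.024. Without 1 array the ranges were -0.065 to 0.050 for Mrpl52, -0.11 to 0.059 for Mrps34, -0.029 to 0.061 for Mrps12, -0.033 to 0.074 for Mrps24, -0.028 to 0.17 for Mrps31 and -0.054 to 0.058 for Mrpl58.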

Other observations

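One gene of the translation factor list, named after its values were seen, lay lower in HFD. Mrrf, the mitochondrial ribosome recycling factor, had 10.19, 11.12 and 11.85 in the NCD pools and 10.17, 9.61 and 9.69 in the HFD pools (-1.22 ± 0.41, limma adjusted p = 0.125). The groups were apart by little, since NCD1 and HFD1 were nearly equal, and the gene was not called. The list mean of the endothelial markers had a similar course, at 12.35, 14.34 and 14.78 in NCD and 12.85, 11.43 and 11.41 in HFD. A relation of Mrrf to those markers was not tested.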
